A study of Homo sapiens with 6 samples.

Results

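The MAPK phosphatases and Sprouty proteins are feedback brakes on MAP kinase signalling, and their transcripts were followed in LNCaP cells, a human prostate cancer cell line, after exposure to gedunin, a plant limonoid found in neem. The genes were chosen by name: DUSP1, DUSP2, DUSP4, DUSP5, DUSP6, DUSP8, DUSP10, DUSP16, SPRY1 and SPRY2. Of these 10 genes, 9 had at least 1 probe set annotated to them alone, giving 14 of the 22215 probe sets on the array. DUSP16 was not analysed here. Cells growing in RPMI medium with serum had received 20 µM gedunin (3 arrays) or DMSO, its solvent (3 arrays), for 6 h, and each array is labelled as a biological replicate. LNCaP is a single established line, so the replicates are cultures of 1 line, and each p-value reflects variation among these arrays.

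The array labelled DMSO 3 was kept apart throughout, and gedunin was compared with DMSO 1 and DMSO 2 (3 against 2 arrays). Relative to the mean of the 5 remaining arrays, 8 of 11 luminal prostate markers read 8-fold or more lower on it, and 11 of 12 leukocyte markers 8-fold or more higher. The summed intensity of the prostate markers was 317 there, against 17064 and 17673 on DMSO 1 and 2 and 16187 to 16813 with gedunin. For the leukocyte markers it was 31840 there, 962 to 992 on DMSO 1 and 2 and 793 to 879 with gedunin. Both sums were also lower with gedunin than on DMSO 1 and 2, but single prostate markers moved both ways. On every gedunin array KRT8 and KRT18 read higher than on DMSO 1 and 2, and FOLH1, ACP3, HOXB13 and TMPRSS2 lower. KRT18 read 3263 to 3596 against 2505 and 2517, and FOLH1 6126 to 6206 against 7183 and 7626. Most of the leukocyte sum on these arrays was LCP1, at 564 to 655 with gedunin and 748 and 735 on DMSO 1 and 2. The part of these markers in the results was not tested. The RNA came from whole cultures, in which fewer cells of a type and less RNA per cell cannot be told apart.

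MAP kinases (ERK, JNK and p38) are switched on by phosphorylation of a threonine and a tyrosine in their activation loop. Dual-specificity phosphatases (DUSPs) remove both phosphates, and many of their genes are themselves induced by the kinases they turn off, so that a signal limits its own length. Sprouty proteins act further up, between growth factor receptors and RAF.

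With gedunin, DUSP1 and DUSP10 rose by about 0.5 on the log2 scale, SPRY1 fell by a like amount, and DUSP8 fell by a smaller one. In all, 2 of the 14 probe sets rose and 2 fell at an adjusted p of 0.05 (limma, Benjamini-Hochberg over all probe sets). That is 28.6 percent of the probe sets, against 15.3 percent of all 22215 called, of which 7.37 percent were called higher and 7.91 percent lower. All changes were small. The median log2 fold change over the 14 was 0.044 and over all probe sets -0.012, the median size regardless of sign was 0.20 against 0.12, and the largest was 0.52. The gedunin arrays lay wholly on one side of DMSO 1 and 2 for 7 of the 14 probe sets, or 50.0 percent, against 42.8 percent of all probe sets.

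**Figure D1:**
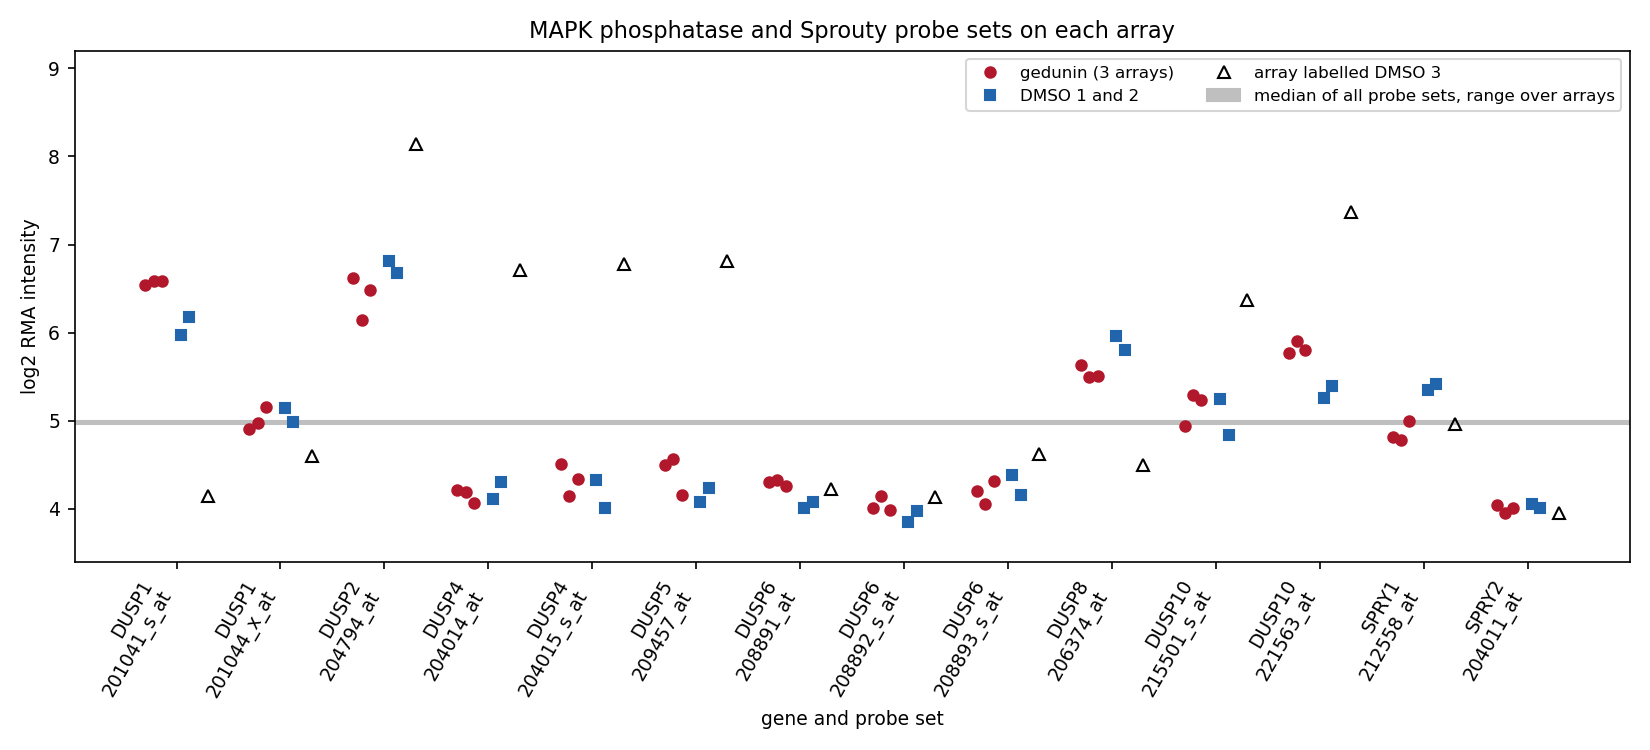
Log2 RMA intensity (vertical axis) of each of the 14 probe sets (horizontal axis) on every array, with gedunin as red circles, DMSO 1 and 2 as blue squares and the array labelled DMSO 3 as open triangles; the grey band is the range over arrays of the median of all probe sets. Heights may be compared between arrays of a probe set but not between probe sets. DUSP4, DUSP5, DUSP6 and SPRY2 lie below the band on all 5 other arrays. The triangles of DUSP2, DUSP4, DUSP5 and DUSP10, and that of DUSP6 on 208893_s_at, lie above every other array.

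DUSP4, DUSP5, DUSP6 and SPRY2 were dim in LNCaP cells. The median intensity of all probe sets was 31.1 to 32.0 per array, and 7 of the 14 lay below it on all 5 arrays: both of DUSP4, the 1 of DUSP5, all 3 of DUSP6 and the 1 of SPRY2. Above it on all 5 lay 4 probe sets, namely 1 of DUSP1, 1 of DUSP10 and those of DUSP2 and DUSP8. The table holds no detection calls, and RMA compresses folds at low intensity.

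DUSP1 encodes MKP-1, a nuclear phosphatase induced within minutes to hours by growth factors and by stress, which acts on p38, JNK and ERK. Its probe set 201041_s_at read 92.9, 95.9 and 96.3 on the 3 gedunin arrays and 62.7 and 72.5 on DMSO 1 and 2. Every gedunin array was above both DMSO arrays. The log2 fold change was 0.49 ± 0.09 (SE, n = 3 and 2 arrays, limma adjusted p = 0.00600), a 1.41-fold rise. Its other probe set, 201044_x_at, read 29.9, 31.4 and 35.8 with gedunin and 35.3 and 31.7 with DMSO. These overlapped, and the log2 fold change was -0.052 with a 95% interval from -0.29 to 0.18. The rise of DUSP1 was thus called on 1 of its 2 probe sets. Without DMSO 1 it was 0.39 and not called (adjusted p = 0.0789).

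DUSP2 encodes PAC-1, a nuclear phosphatase best known from activated lymphocytes. It read 98.1, 70.6 and 89.5 with gedunin and 112 and 102 on DMSO 1 and 2, so all gedunin arrays were lower. They differed among themselves by more than the DMSO arrays did. The log2 fold change of -0.33 ± 0.13 did not pass (adjusted p = 0.144, 95% interval -0.63 to -0.030). With arrays centred on GAPDH and ACTB, a pair of housekeeping genes, it passed at -0.46 (limma adjusted p = 0.0253). That centring moved the median of all probe sets to -0.14 and called 4139 of 22215 lower, against 1758 without it.

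DUSP4 and DUSP5 encode nuclear phosphatases that are induced by ERK, and DUSP5 acts on ERK alone. DUSP4 read 16.7 to 18.5 with gedunin and 17.3 and 19.8 with DMSO on 204014_at, and 17.7 to 22.8 against 20.1 and 16.1 on 204015_s_at. Its log2 fold changes were -0.054 and 0.16, with 95% intervals of -0.27 to 0.17 and -0.13 to 0.45. DUSP5 read 22.6, 23.6 and 17.8 with gedunin against 16.9 and 18.8 with DMSO, an overlap set by gedunin 3. Its log2 fold change was 0.25 ± 0.13 (adjusted p = 0.250, 95% interval -0.035 to 0.53). Without gedunin 3 it passed, at 0.37 (adjusted p = 0.0402).

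DUSP6 encodes MKP-3, a cytoplasmic phosphatase of ERK whose transcript is widely read as a gauge of ERK activity. On 208891_at it read 19.7, 20.1 and 19.2 with gedunin and 16.1 and 16.9 with DMSO. The groups did not overlap, but the log2 fold change of 0.26 ± 0.09 did not pass (adjusted p = 0.0772, 95% interval 0.065 to 0.45). The probe set 208892_s_at gave 0.13 and 208893_s_at gave -0.072, neither called, and the latter overlapped between groups. All 3 probe sets stayed between 14.5 and 20.8 on the 5 arrays.

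**Figure D2:**
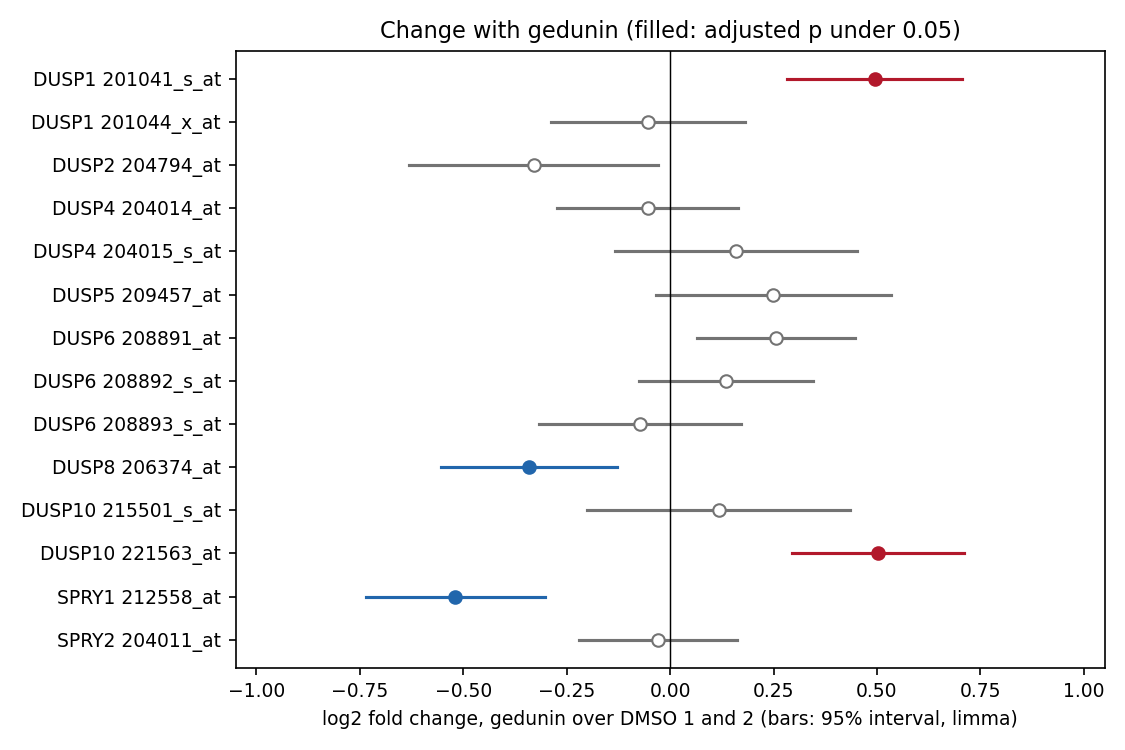
Log2 fold change of each probe set, gedunin over DMSO 1 and 2 (horizontal axis), with limma's 95% interval as a bar; filled points passed an adjusted p of 0.05 (red higher, blue lower). The 4 filled points are 1 probe set each of DUSP1, DUSP8, DUSP10 and SPRY1, and the intervals of all 10 open points lie within 2-fold either way.

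DUSP8 and DUSP10 belong to the branch of the family that prefers the stress kinases JNK and p38 over ERK, as does DUSP16. They moved in opposite directions. DUSP10, which encodes MKP-5, read 54.6, 60.1 and 55.7 with gedunin on 221563_at and 38.3 and 41.9 on DMSO 1 and 2. All gedunin arrays were higher, with a log2 fold change of 0.50 ± 0.09 (limma adjusted p = 0.00488), a 1.42-fold rise. Its second probe set, 215501_s_at, read 30.8, 39.3 and 37.6 against 38.02 and 28.5, overlapped, and gave 0.12 (95% interval -0.20 to 0.44). Without DMSO 1 the change on 221563_at was 0.44 and not called (adjusted p = 0.0653).

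DUSP8 read 49.7, 45.0 and 45.5 with gedunin and 62.5 and 55.9 on DMSO 1 and 2, with every gedunin array lower. It fell by 0.34 ± 0.10 on the log2 scale (limma adjusted p = 0.0378). This was the least stable of the 4 calls. It was lost without gedunin 2 (-0.32, adjusted p = 0.0988), gedunin 3 (-0.32, adjusted p = 0.0824), DMSO 1 (-0.26, adjusted p = 0.262) or DMSO 2 (-0.42, adjusted p = 0.0743), although the value stayed below 0 in each.

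The Sprouty genes encode membrane-associated inhibitors of receptor tyrosine kinase signalling to RAS and ERK. SPRY1 read 28.2, 27.6 and 32.0 with gedunin and 40.9 and 42.9 on DMSO 1 and 2. All gedunin arrays were lower, and it fell by 0.52 ± 0.10 on the log2 scale (limma adjusted p = 0.00523), the largest change among the 14 probe sets. Gedunin took it from above the array median on DMSO 1 and 2 to about that median. Without DMSO 2 the fall was -0.48 and not called (adjusted p = 0.0605). SPRY2 lay between 15.5 and 16.6 on all 5 arrays, under the lower quartile of intensity on each, and its log2 fold change was -0.029 (95% interval -0.22 to 0.16).

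DUSP1 and DUSP8 share an element in the promoter windows searched, which is why these sequences are shown. Their called changes were in opposite directions, and any part of the element in them was not tested. The fall of DUSP8 was called in 6 of 14 alternative settings, and DUSP1 read -0.052 on 201044_x_at. The cAMP response element, TGACGTCA, is bound by factors of the CREB and ATF families. RefSeq promoter windows of GRCh38.p14, from 250 bases before to 50 after each start, were searched on both strands. They covered 8 of the 10 genes in 12 windows. The element was in 1.85 percent of all 35116 windows, and among these genes it was in those of DUSP1 and DUSP8. In DUSP1 it began 125 bases before the start and in DUSP8 there were 2, beginning 118 and 74 bases before it. The DUSP8 gene is annotated at chr11:1554051-1572848, so the start of its window and both elements lie inside the annotated gene. The 250 bases before the start of DUSP1 (chr5:172771196-172771445, minus strand) and 30 bases around each DUSP8 element (chr11:1572371-1572400 and chr11:1572327-1572356, minus strand) read as follows, with the element in capitals.
DUSP1: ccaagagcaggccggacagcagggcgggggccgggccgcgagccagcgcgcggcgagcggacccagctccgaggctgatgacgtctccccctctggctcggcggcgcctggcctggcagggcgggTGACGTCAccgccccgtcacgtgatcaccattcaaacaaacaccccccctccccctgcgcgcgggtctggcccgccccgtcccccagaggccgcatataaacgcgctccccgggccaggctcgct
DUSP8, farther from the start: ccgggctccgcTGACGTCAcctgcccccga
DUSP8, nearer to the start: ttggctgcaggTGACGTCAggggctttttt

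The other 3 motifs were searched in the same windows. The AP-1 element TGACTCA (in 4.95 percent of all windows) and the element TGATGCAA, bound by pairs of C/EBP and ATF factors (0.866 percent), were in none of the 12 windows. Paired heat shock units, GAANNTTC or TTCNNGAA, were in 13.5 percent of all windows and here in 1 of the 2 of SPRY1. None of these motifs overlaps the cAMP response elements shown. A match is a description of the letters and says nothing of binding in these cells.

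The genes nearest in pattern to DUSP10 over the 5 arrays, by Euclidean distance of log2 values taken relative to the mean of DMSO 1 and 2, were FECH (0.076), CBS (0.077) and KIF14 (0.085). Their log2 fold changes were 0.52, 0.52 and 0.50. For SPRY1 they were ENPP4 (distance 0.055), MALL (0.084) and FAM111A (0.087), with -0.53, -0.55 and -0.51. Fold changes close to those of DUSP10 and SPRY1 follow from the way these genes were chosen. FECH encodes the last enzyme of heme synthesis and CBS an enzyme of cysteine synthesis.

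The array labelled DMSO 3 read differently from DMSO 1 and 2 in most of the genes, and it had no replicate. On 7 of the 14 probe sets it was above all 5 other arrays, and on 3 below them. The share of all probe sets that did so was not counted, so whether these counts are particular to these genes is not known. DUSP2 read 282 there, 2.63 times the mean of DMSO 1 and 2, and DUSP10 read 165 on 221563_at, 4.12 times that mean. DUSP1 read 17.7 on 201041_s_at and DUSP8 22.7, which put DMSO 1 and 2 at 3.83 and 2.61 times its level. When this array was included as the third control, limma called 0 of the 14 probe sets (1 at an unadjusted p of 0.05, SPRY1), against 1.40 percent of all probe sets (1.13 percent higher and 0.27 percent lower). The log2 fold changes of the 4 called probe sets were then 1.14 for DUSP1, 0.12 for DUSP8, -0.18 for DUSP10 and -0.38 for SPRY1, so that DUSP8 and DUSP10 changed sign.

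**Figure D3:**
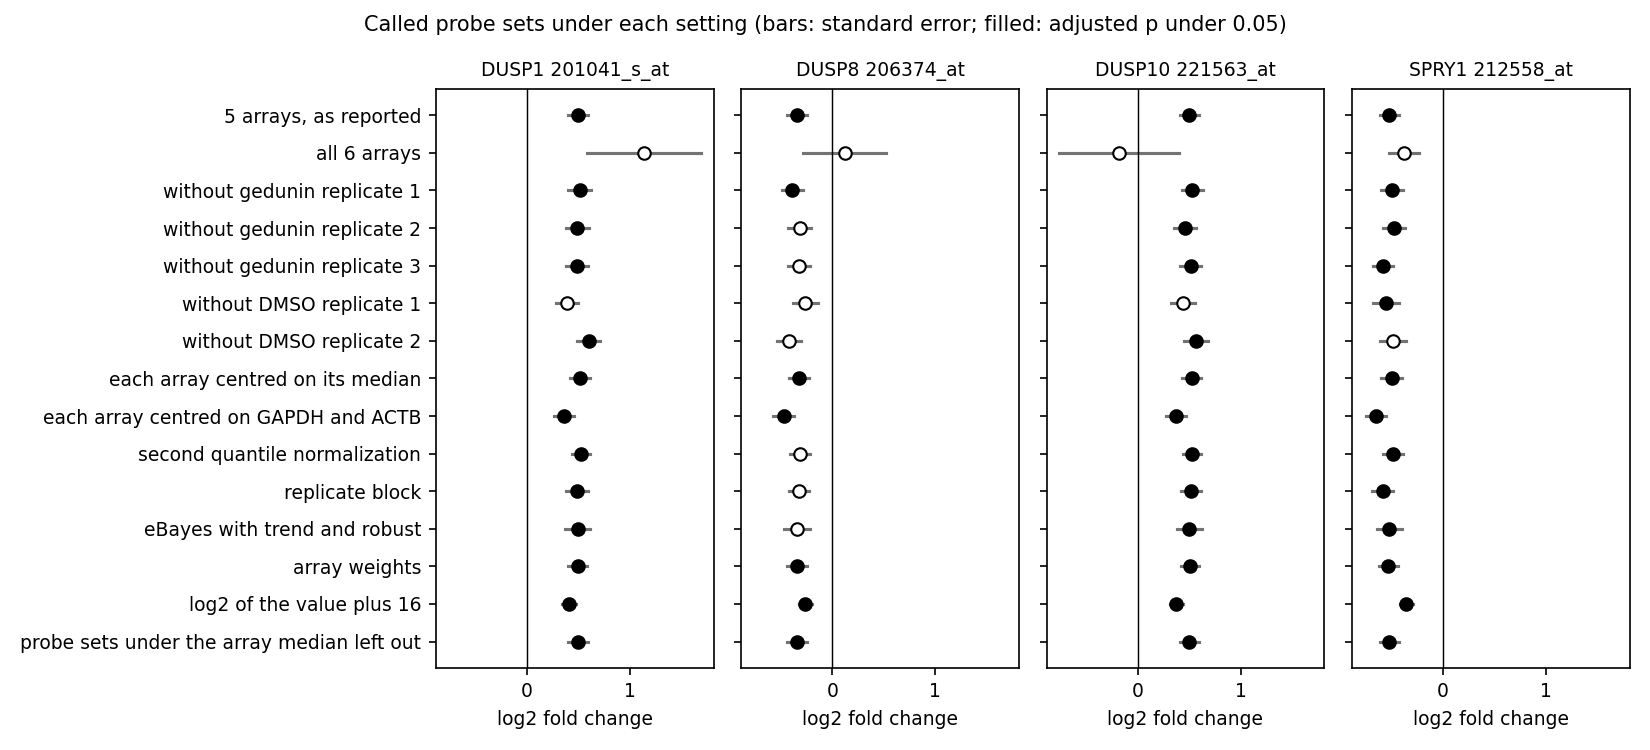
Log2 fold change (horizontal axis) of the 4 called probe sets under each of 15 settings (vertical axis), with standard errors as bars; filled points passed an adjusted p of 0.05. DUSP1, DUSP10 and SPRY1 were called in 12 of the 14 alternatives and DUSP8 in 6; with all 6 arrays none was called and DUSP8 and DUSP10 crossed 0.

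Around these genes, 6 lists covered the rest of the pathway, with each gene read on its brightest probe set. Over all lists 29 of 124 genes rose and 7 fell, against 8.24 percent of all 12165 genes called higher and 9.36 percent lower, or 17.6 percent in all. The lists were chosen with earlier results of these data known, so these counts are a description only. With arrays centred on GAPDH and ACTB the split was 23 higher and 19 lower, against 5.85 percent and 21.1 percent of all genes, and that centring moved the median of all probe sets to -0.14. With all 6 arrays 3 rose (GADD45A, ATF3 and HBEGF) and 1 fell (MYC), against 1.31 percent and 0.362 percent of all genes (1.67 percent in all), and 24 had an unadjusted p under 0.05. Without DMSO 1 the number higher was 16, where 4.92 percent of all genes were called higher. Values below are log2 fold changes in the 5 arrays. Of the 36 called genes, 23 had other probe sets on the array, and for 9 of those none was called the same way. These were PTPRR, CBLB, SPRY4, SOS1, SOS2, IRS2, ERBB3, FGFR3 and ETV5.

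Among other dual-specificity and MAP kinase phosphatases, 3 of 11 rose and 1 fell, with a median of 0.14 against -0.017 over all genes. PTPRR, a receptor-type tyrosine phosphatase that binds ERK and p38, fell by 1.01 ± 0.15 (adjusted p = 0.00143), from 50.1 and 44.4 on DMSO 1 and 2 to between 19.2 and 28.7. The small phosphatases DUSP3 (0.46), DUSP14 (0.39) and DUSP12 (0.33) rose. Without DMSO 1, or without DMSO 2, none of the 3 was called, since the count of higher genes in this list was then 0.

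Of 13 other brakes on receptor and RAS signalling, 3 rose and 0 fell, with a median of 0.060. CBLB, a ubiquitin ligase that downregulates receptors, rose most, by 1.11 ± 0.09 (adjusted p = 3.28e-05). LRIG1, a membrane inhibitor of ERBB receptors, rose by 0.50. SPRY4, another Sprouty gene, rose by 0.41 (adjusted p = 0.0394) while SPRY1 fell, from 20.8 and 19.9 to between 24.1 and 31.4, mostly below the array median.

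Growth factor receptors and their adaptors moved both ways, with 5 of 21 higher and 2 lower and a median of 0.15. ERBB2 fell by 0.82 ± 0.09 (adjusted p = 1.90e-04), from 569 and 597 to between 312 and 342, and its partner receptor ERBB3 by 0.40. The RAS exchange factors SOS1 (0.73) and SOS2 (0.52), the adaptors SHC1 (0.59) and IRS2 (0.48), and the receptor FGFR3 (0.39) rose.

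In the RAS-RAF-MEK-ERK cascade 5 of 15 rose and 0 fell, with a median of 0.10. MKNK2, a kinase of the translation factor eIF4E, rose by 1.42 ± 0.09 (adjusted p = 6.04e-06), from 1100 and 1209 to between 2954 and 3252. The ribosomal S6 kinases RPS6KA2 (0.89) and RPS6KA3 (0.59), the RAS-related RRAS2 (0.53) and the MEK scaffold LAMTOR3 (0.53) also rose. The genes of MEK1, MAP2K1 (-0.017), and ERK1, MAPK3 (-0.11), were not called, nor were the sister kinases MKNK1 (-0.22) and RPS6KA1 (-0.11). These 4 are named here after their values were seen.

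In the JNK and p38 cascades 4 of 27 rose and 1 fell, with a median of -0.077. GADD45A, a stress-inducible activator of the kinase MAP3K4, rose by 2.61 ± 0.11 (adjusted p = 2.31e-07), from 140 and 168 to between 898 and 1008. TAB2 (0.75), GADD45B (0.59) and MAP3K5, the kinase ASK1 (0.46), rose, and the kinase MAP3K11 fell by 0.42.

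Immediate-early and ERK-output genes split as well, with 9 of 37 higher and 3 lower and a median of 0.11. ATF3 (3.94), IER5 (2.67), ZFP36 (1.73) and FOSL2 (1.17) had the largest rises, and HBEGF, a ligand of the EGF receptor, rose by 1.07. The rest of the 9 were KLF6 (0.72), FOSL1 (0.67), JUN (0.46) and ETV5 (0.32), named after their values were seen. The 3 genes that fell were CCND1, which encodes cyclin D1, by 0.91, MYC by 0.87 and the ETS factor ETV1, a relative of ETV5, by 0.58. FOS (0.21, adjusted p = 0.296) and EGR1 (0.11, adjusted p = 0.514), the classical immediate-early genes, were not called and read 16.7 to 23.2 on the 5 arrays, below the array median; they were picked out after their values were seen.

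**Figure D4:**
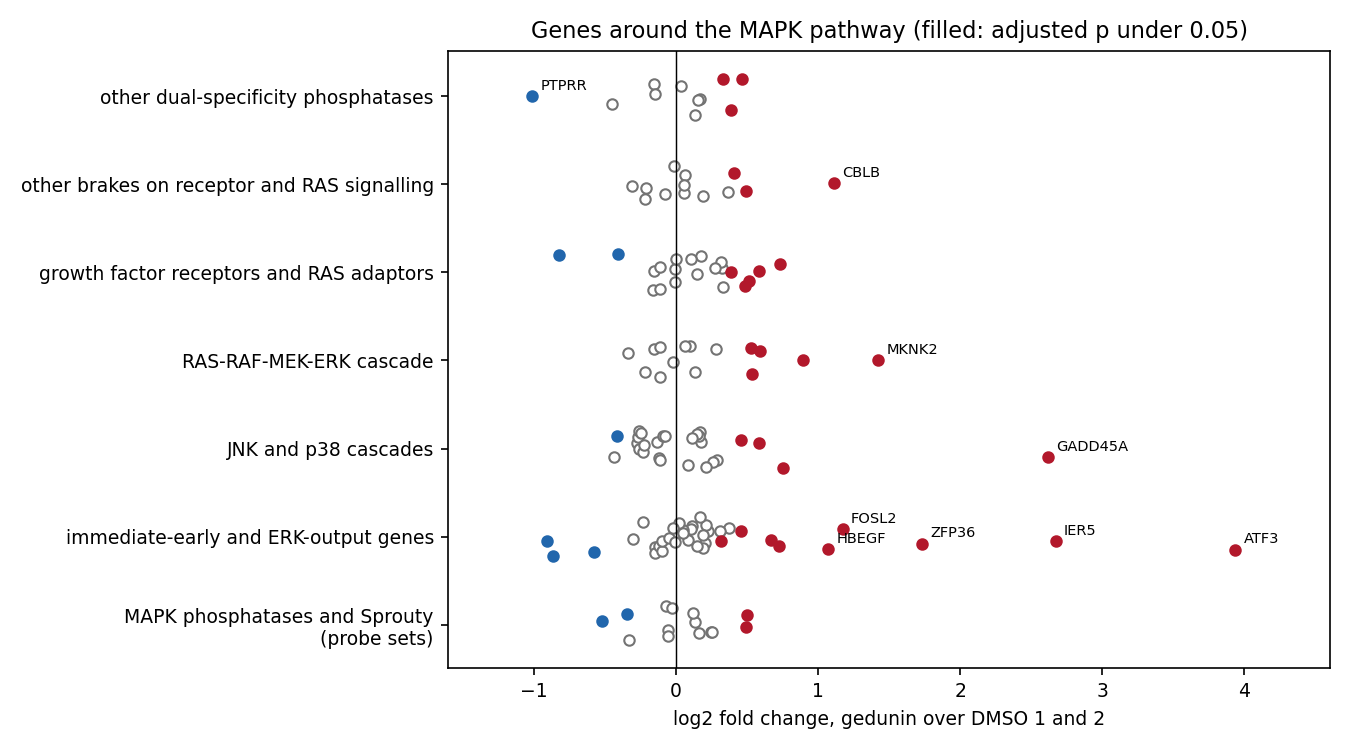
Log2 fold change, gedunin over DMSO 1 and 2 (horizontal axis), of each gene of the 6 lists and of the 14 MAPK phosphatase and Sprouty probe sets (rows); filled points passed an adjusted p of 0.05 (red higher, blue lower), and vertical scatter within a row has no meaning. ATF3 at 3.94, IER5 at 2.67 and GADD45A at 2.61 lie far to the right, while the phosphatase and Sprouty probe sets stay between -0.52 and 0.50.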

How the data were processed

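The authors deposited 1 intensity per probe set and array. Per the submitters' processing notes the tool was RMA (version not given), a method that subtracts background, sets all arrays to 1 distribution and combines the probes of a set. Whether all 6 arrays were normalized as 1 batch is not given in the sources used here. The intensities were on a linear scale, and log2 was taken.

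Probe sets were named with the platform annotation of 2016: 19724 named 1 gene, 568 several and 1923 none. Gedunin (3 arrays) was compared with DMSO 1 and 2 by limma 3.58.1 in R 4.3.3 (lmFit, eBayes without trend, no filter), with Benjamini-Hochberg adjustment over all 22215 probe sets and a threshold of 0.05. The code was tested on simulated data. For the lists, a gene was read on the probe set with the highest mean log2 value over the 5 arrays.

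All members were named, up to 4 called genes per list with the largest change, every gene of a count of 5 or fewer, and the 3 genes nearest in pattern to the largest called rise and fall. Members and lists were chosen with earlier results of these data known. Genes outside this rule are marked in the text. Alternatives were other scalings, array sets, variance models, filters, a block and thresholds. The precision is limited by the number of arrays.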

Additional observations from a re-analysis of the deposited data

Results flagged for a closer look

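The array labelled DMSO 3 is used in no comparison of the main results, and 3 probe sets read there at least 4 times both DMSO 1 and DMSO 2. The share of all probe sets that did so was not counted. DUSP4 read 105 on 204014_at, against 17.3 and 19.8 on DMSO 1 and 2, and 110 on 204015_s_at, against 20.1 and 16.1. DUSP5 read 112, against 16.9 and 18.8. The leukocyte marker sum was also highest on this array (31840, against 962 to 992), and its part in these values was not tested.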

How the results depend on the processing

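With all 6 arrays 0 probe sets rose and 0 fell, and 3 list genes rose and 1 fell. Leaving out 1 of the 5 arrays gave 0 to 3 probe sets higher and 0 to 2 lower, and 16 to 25 list genes higher and 5 to 8 lower. The number of probe sets lower was 1 with a second quantile normalization, with eBayes using trend and robust fitting, and at a threshold of 0.01. Without the suffixes _x_at and _s_at 1 probe set was higher. The replicate block gave 3 higher and 1 lower: DUSP8 was not called (-0.32, adjusted p = 0.0743), DUSP5 was (0.37, adjusted p = 0.0460), and no other call among the 14 changed. Deviations of same-numbered arrays from their group means had correlations of -0.033 and 0.039 over probe sets. With only DMSO 1 and 2, both values rest on the same DMSO difference, so they cannot decide whether arrays were paired. With GAPDH and ACTB centring 19 list genes were lower, 2 and 3 of the 14 probe sets were higher and lower, and DUSP10 on 215501_s_at read -0.014. That centring moved the median of all probe sets to -0.14.

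With all 6 arrays the sign turned for DUSP1 on 201044_x_at (0.10), DUSP4 on 204015_s_at (-0.71), DUSP5 (-0.64), DUSP8 (0.12), and DUSP10 on 215501_s_at (-0.33) and 221563_at (-0.18). Leaving out 1 array gave both signs for DUSP1 on 201044_x_at (-0.13 to 0.025, and 0.0016 without gedunin 1), DUSP4 on 204014_at (-0.15 to 0.043), DUSP6 on 208893_s_at (-0.18 to 0.041) and DUSP10 on 215501_s_at (-0.090 to 0.32), none of them called. By list, the counts higher and lower with all 6 arrays were 1 and 0 for the JNK and p38 cascades, 2 and 1 for immediate-early genes, and 0 and 0 for the other 4 lists. The cause of these changes was not tested. The small number of arrays limits the precision. Centring on control probe sets was not run, since the table holds 0 of them.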
